A study of Mus musculus with 23 samples.

Results

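The embryonic stem (ES) cell lines E81 and E100 carry the same -/- genotype in the labels, and the data below describe how they differ in the absence of the activator SRF-VP16. The members are the 7 of 23 arrays of these lines that received a control plasmid. They are 4 arrays of E81, with 2 for the empty vector and 2 for SRFdM-VP16, and 3 arrays of E100, with 1 for the vector and 2 for SRFdM-VP16. RNA was taken 72 hours after transfection in all groups. The other 16 arrays serve as reference levels: 6 each of wild-type E14 and of the +/- line E99, with 2 per plasmid, and 2 each of E81 and E100 with SRF-VP16. Which gene is -/- is not stated in the labels, nor what distinguishes SRFdM-VP16 from SRF-VP16 beyond its use as a control, nor how the lines were derived. It is not said either whether duplicates were separate cultures, and the p-values therefore reflect only how far these arrays scatter, which may be technical.

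Serum response factor (SRF) binds the promoters of immediate-early genes and of genes for muscle and cytoskeletal proteins, and SRF-VP16 joins it to the viral VP16 activation domain. Lines of ES cells with the same targeted genotype descend from different cells and have separate histories in culture. Such lines are known to differ in imprinted genes, in Y-linked genes and in chromosome content, and the tests below include these classes. DNA was not measured here.

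Intensities are printed in the units of the deposited table. Anything lower than 58 was raised to that floor for log2 transformation, and differences are log2 values of E81 minus E100 ± SE from limma, with Benjamini-Hochberg adjusted p-values over 9643 probe sets. A difference is called where the adjusted p is under 0.05. The arrays differed in background: 24.2% to 25.8% of the values of an E100 control array were at or below 0, against 25.9% and 26.9% for the vector arrays of E81 and 43.6% and 36.1% for its SRFdM-VP16 arrays. In the SRFdM-VP16 arrays of the other lines the share was 34.0% and 38.3% (E99) and 37.85% and 24.9% (wild type). The median over all probe sets was -0.27 for E81 minus E100, -0.01 with vector alone and -0.45 with SRFdM-VP16 alone, and every difference below has to be read against that shift. The first SRFdM-VP16 array of E81 also had the lowest ratio of 5′ to 3′ Gapdh control signal, at -0.93 on the log2 scale, whereas the other 6 control-plasmid arrays ran from 0.05 to 0.47. The share of values at or below 0 averaged 33.1% in E81 and 24.9% in E100 (exact permutation test, two-sided p = 0.171, 35 arrangements, smallest possible p 0.0286). The part that background and RNA integrity play in the results was not tested.

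Both lines had the marker genes of ES cells. All 10 markers examined were on the array, none was at the floor in all arrays of either line, and their summed intensity was 53709 to 104647 in E81 and 89882 to 104518 in E100. The pluripotency factor Pou5f1 measured 23979 and 24021 with vector and 15730 and 20228 with SRFdM-VP16 in E81, against 27732, 27106 and 29982 in E100. The E81 arrays all lay below those of E100, but the difference of -0.44 ± 0.30 was not called (limma adjusted p = 0.56), and it was 0.25 after division by the array median. Sox2 (-0.26 ± 0.27), Nanog (-0.32 ± 0.42), Klf4 (-0.06 ± 0.35), Klf2 (0.13 ± 0.39) and Fgf4 (0.25 ± 0.25) were not called either, with adjusted p-values of 0.704 to 0.998. Utf1 (-0.76 ± 0.40), Esrrb (-0.74 ± 0.49) and Zfp42 (-0.46 ± 0.46) were more negative and also not called (limma adjusted p of 0.433 to 0.708). Of 30 pluripotency genes on the list only Klf5 was called, beside 55 of 6813 named genes (0.807%), and the list median of -0.29 was that of all named genes, also -0.29. At an unadjusted p under 0.05 in limma, 5 of the 30 were lower and 0 higher, beside 13.3% and 1.2% of all named genes. Of 7 fibroblast markers, Col1a2 was at the floor in all 7 arrays and Postn in all 4 of E81. The summed fibroblast signal was 5241 to 11671 in E81 and 5864 to 10529 in E100, and came mostly from Fn1.

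With control plasmids, 76 of 9643 probe sets (0.788%) were called, and all 76 were lower in E81. At an unadjusted p under 0.05, 1213 probe sets were lower and 112 were higher. In 48 of the 76 the 4 E81 arrays and the 3 E100 arrays did not overlap, which was so for 7.44% of all probe sets with E81 lower, and 43 of these 48 were at least 2-fold. In 15 of the 76 the vector array of E100 was the single array of the 7 above the floor, so these calls rest on 1 value. Of the 43 larger differences, 24 had an E100 mean of at least 500. Their median was -1.78 with vector alone and -2.14 with SRFdM-VP16 alone, where the choice of non-overlapping arrays fixes the sign. The count of calls moved with the scaling: quantile normalization gave 22 calls (3 higher, 19 lower) and division by the array median gave 21 (8 higher, 13 lower). Of the 43, 14 and 7 remained called. With vector arrays only, 4 of the 43 remained called, and 4 did so without both SRFdM-VP16 arrays of E81.

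The genes below are grouped by what they encode, in groups formed after the values were seen. Of 37 called genes in the set chosen for naming, 13 kept the call in at least 18 of 24 other settings. Under both quantile normalization and median division 7 did so. Htra1, a secreted serine protease, measured 73 and 104 with vector and 265 and 320 with SRFdM-VP16 in E81, and 1879, 2102 and 1258 in E100. The 2 lines did not overlap, and the difference was -3.46 ± 0.43 (limma adjusted p = 0.00163). It stayed called in all 24 other settings. Wild type, at 716 to 1115, lay between them, and E81 was called lower than wild type (-2.45, adjusted p = 0.0336). Wnt6, a ligand of the Wnt family, was at or near the floor in E81 (45, 32, -178 and 62) and measured 517, 643 and 158 in E100 (-2.78 ± 0.52, adjusted p = 0.0238). The Wnt6 call held in 12 of the 24 other settings and under neither other scaling (limma adjusted p = 0.121 and 0.114). Hbegf, a ligand of the epidermal growth factor receptor, measured 984, 1443, 717 and 854 in E81 and 2853, 2647 and 3191 in E100, and wild type (2646 to 3373) was at the level of E100. Ltbp4, which binds latent TGF-beta, measured 2728, 3671, 1745 and 2769 in E81 against 6952, 6594 and 5882 in E100 (-1.32 ± 0.21, adjusted p = 0.00851). Bmp4, a TGF-beta family ligand, was called with the dimmer of its 2 probe sets (-2.23, adjusted p = 0.0319) and not with the brighter (-1.61, adjusted p = 0.137). Cpxm1, a secreted carboxypeptidase-like protein, and Pla2g7, a secreted phospholipase, fell by 2.42 and 2.40 on the log2 scale.

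A lysosomal protease, a gamma-secretase subunit and several membrane proteins were also lower in E81. Ctsc, the lysosomal dipeptidyl peptidase cathepsin C, measured 77, 104, -126 and 27 in E81 and 644, 832 and 505 in E100, a difference of -3.16 ± 0.48 (limma adjusted p = 0.00633). A second probe set of Ctsc lay near the floor in most arrays and was not called (-0.50, adjusted p = 0.211). Psen2, a subunit of gamma-secretase, was at 59 or below in E81 and at 571, 384 and 540 in E100. Slc39a4, a zinc importer, measured 732, 1180, 754 and 845 in E81 and 3046, 3638 and 2952 in E100. Here wild type (885 to 1226) sat with E81, and E100 was called higher than wild type (1.55, adjusted p = 0.0216). The membrane proteins Emp1 (-1.62 ± 0.32) and Emp2 and the caveolar protein Cavin1 (-1.44 ± 0.28) were also called. A second Cavin1 probe set was not (0.22, adjusted p = 0.909).

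Among signalling genes, Plcd1 and Lpar1 were at the floor in every E81 control array, so their folds are given as lower bounds, from the mean log2 of the E100 arrays over the floor. Plcd1, a phospholipase C that produces second messengers, was negative in all 4 E81 arrays and measured 583, 297 and 420 in E100, at least 7.20-fold higher (limma adjusted p = 0.00192). It stayed called in all 24 other settings. Wild type was at -186 to 79, so E100 stood apart from it too (2.86, adjusted p = 0.00254). Lpar1, a receptor for lysophosphatidic acid, showed the same pattern, with 200, 240 and 147 in E100 (at least 3.31-fold higher) and none above 0 in E81 or wild type. Smad7, an inhibitor of TGF-beta signalling, measured 2356, 2569, 1800 and 1679 in E81 and 4847, 4556 and 4051 in E100 (-1.14 ± 0.21, adjusted p = 0.0238). The adaptor Shc1 fell by 1.52 on the log2 scale, and Bad, which promotes apoptosis, was the only called gene of 20 apoptosis regulators (0.807% of all named genes were called).

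Other called genes included Rpl39l, a paralogue of a ribosomal protein best known from germ cells, at 444, 748, 131 and 228 in E81 and 4461, 6996 and 2972 in E100 (-3.84 ± 0.74, limma adjusted p = 0.0269). Cox6b2, a testis form of a cytochrome oxidase subunit, fell by 1.92 on the log2 scale, with a probe set that may cross-hybridise within its family. Septin1, of the septin cytoskeleton, was at 61 or below in E81 and at 299, 386 and 269 in E100 (-2.40 ± 0.27, adjusted p = 0.00149). The probe set of Myl4, a muscle myosin light chain, fell by 3.81, but another probe set of Myl4 did not (0.45, adjusted p = 0.812), so the gene's call is uncertain. B9d1, of the transition zone of cilia, fell by 2.34.

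**Figure D1:**
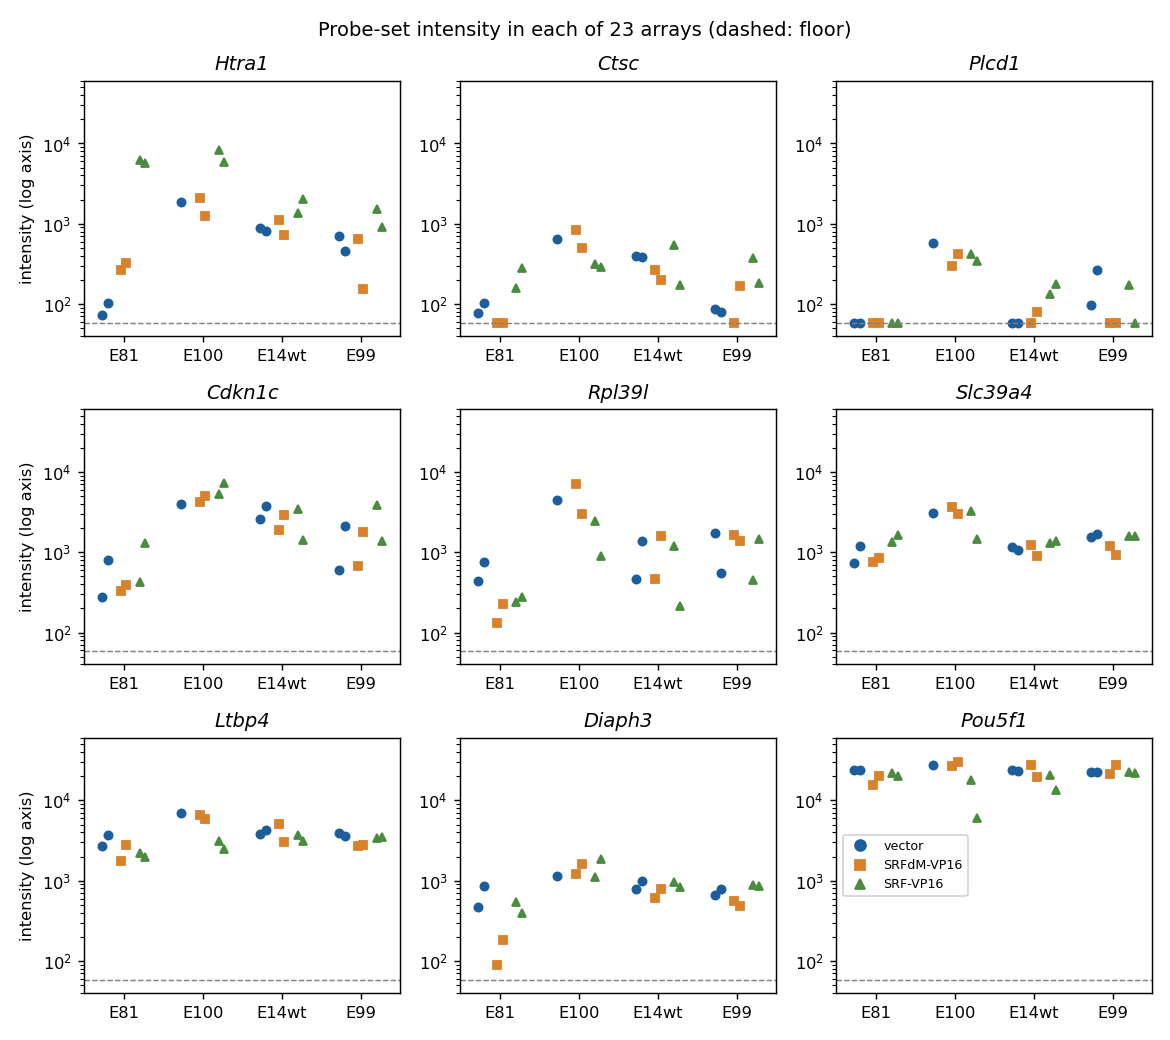
Intensity (log axis) of 9 genes in each of the 23 arrays, by line and plasmid, with values below 58 drawn at the dashed floor. Circles, squares and triangles are single arrays with vector, SRFdM-VP16 and SRF-VP16. The circles and squares of E81 lie below those of E100 in every panel, by 1.36-fold in Pou5f1 and by 10.4-fold in Cdkn1c in the fit.

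The levels of both lines were set beside those of wild type and E99 with the same plasmids. For 31 of the 43 larger differences the wild-type mean was nearer to E81, and for 12 it was nearer to E100. In 8 of the 43 all E81 arrays were at the floor and could not lie lower. Without these, wild type was nearer to E81 for 23 of 35. The share over all probe sets was not computed, so these counts do not set the 43 apart from other probe sets. The median of the 43 was -0.62 for E81 minus wild type and 1.20 for E100 minus wild type, beside medians over all probe sets of -0.03 and 0.23. Of the 43, 12 were called higher in E100 than in wild type (0.487% of all probe sets were), and 1, Htra1, was called lower in E81 (0.083% of all). The 2 comparisons share the wild-type arrays and are given side by side. Against E99 the medians of the 43 were -0.32 for E81 and 1.58 for E100. Differences from the same wild-type arrays follow, on the log2 scale. Genes near wild type in E81 and high in E100 included Plcd1, Slc39a4, Smad7, Lpar1 and Rgcc. The difference of E81 from wild type was -0.11 for Plcd1 and 0 for Lpar1 and Rgcc. Plcd1 and Lpar1 were at the floor in all E81 arrays and at or near it in wild type. The floor therefore fixes how near these 2 lie to wild type. Hbegf (-1.55 and 0.02), Cdkn1c (-2.70 and 0.68) and Htra1 (-2.45 and 1.01) were among those whose wild-type level lay nearer to E100, with E81 minus wild type given first and E100 minus wild type second.

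**Figure D2:**
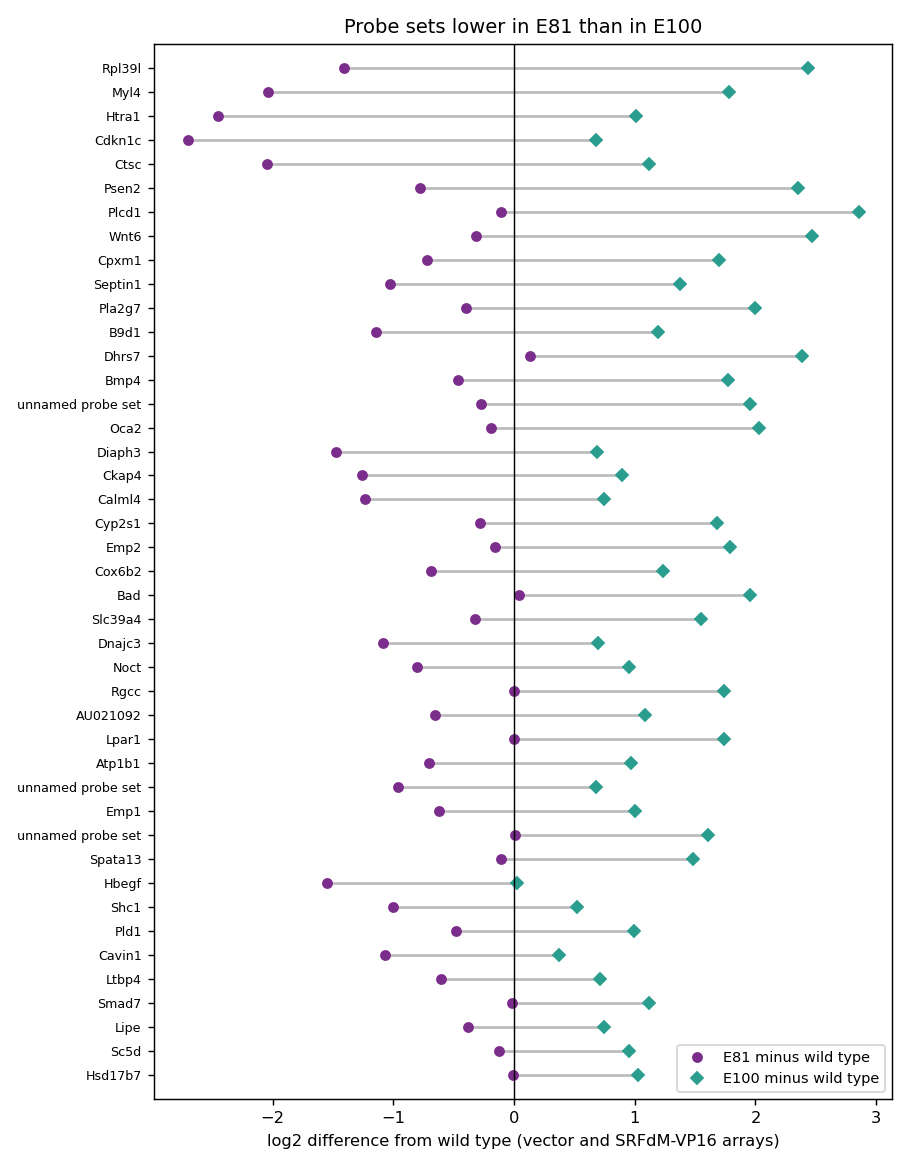
The 43 probe sets that were called lower in E81 than in E100, did not overlap between the lines and were at least 2-fold, drawn as log2 differences from wild type over the vector and SRFdM-VP16 arrays. Circles are E81 and diamonds are E100. The circles spread from about 0 down to -2.70 (Cdkn1c), with a median of -0.62. The diamonds all lie to the right of 0, the nearest at 0.02 (Hbegf), with a median of 1.20.

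No gene was called higher in E81. Acsf3, a mitochondrial acyl-CoA synthetase, came closest, with 841, 869, 1747 and 326 in E81 and negative values in all 3 E100 arrays (at least 13.8-fold, limma adjusted p = 0.0545). Wild type, at 198.5 to 1159, had it as well, and a second probe set of Acsf3 did not differ in the same way (0.01, adjusted p = 1). In the SRF-VP16 arrays of E81 it measured 27 and 120. Pbx3, a homeobox gene, measured 666, 1164, 775 and 775 in E81 and 251, 218 and 630 in E100. Its difference of 1.44 ± 0.38 missed the threshold as deposited (adjusted p = 0.109) and passed after quantile normalization (1.85, adjusted p = 0.0475) and median division (2.13, adjusted p = 0.0423). Its other 2 probe sets were not called. In all, 62 probe sets (0.643%) had all E81 arrays above all E100 arrays, 22 of them at least 2-fold, against 717 and 378 in the other direction.

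Imprinted genes, expressed from 1 parental allele, included 1 called gene among 27 measured, beside 0.807% of all named genes, and the list median was -0.16 beside -0.29. It was Cdkn1c, a cyclin-dependent kinase inhibitor of the imprinted cluster on chromosome 7, which measured 280 and 801 with vector and 328 and 394 with SRFdM-VP16 in E81, and 3945, 4279 and 5069 in E100. That is 450.8 ± 238.1 (SD, n = 4) against 4431 ± 577.2 (SD, n = 3), a difference of -3.38 ± 0.61 (limma adjusted p = 0.0201). Wild type was at 1869 to 3749. Slc22a18 of the same cluster measured 142, 610, 53 and -400 in E81 and 968, 607 and 947 in E100, which overlapped by 1 array and was not called (-2.71, adjusted p = 0.0837). Phlda2, also of the cluster, had 599 to 1418 in E81 and 2177 to 3364 in E100, without overlap and not called (-1.50, adjusted p = 0.204). Its further neighbours Cd81 (-0.87), Nap1l4 (-0.38) and Ascl2 (0.22) were not called. In the SRF-VP16 arrays the differences were -3.08 for Cdkn1c, -2.79 for Slc22a18 and -1.22 for Phlda2, none of them called there.

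Of 4 Y-linked genes measured none was called between the lines, beside 0.807% of all named genes. Eif2s3y, which encodes a translation initiation factor subunit, measured 574.2 to 1432 in wild type, -40, 17, -99 and -12 in E81 and 55, 95 and 328 in E100. Both lines were called lower than wild type (adjusted p = 0.000304 and 0.00226 by limma). The +/- line E99 was low as well, at -17 to 80, and was not tested against wild type. This probe set may cross-hybridise, and the difference of -0.80 between the lines was not called (limma adjusted p = 0.428). Uty was at 90 to 252 in wild type, at 36 or below in E81 and at -31, 2 and 69 in E100. Xist was at or near the floor in both lines.

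No gene of the actin cytoskeleton and SRF target list was called, beside 0.807% of all named genes. Of its 33 genes, 3 were lower and 0 higher at an unadjusted p under 0.05 in limma, beside 13.3% and 1.2% of all named genes, and the median was -0.23. Actg1, a cytoplasmic actin, measured 7159 to 14870 in E81 and 9375 to 10381 in E100 (0.12 ± 0.16). Both lines were called lower than wild type, at 25720.7 to 30085 (limma adjusted p = 0.000612 and 0.000642). The smooth-muscle actin Acta2 was negative in all 7 arrays, and Igfbp6 was at 32 or below in all 7. Egr1 (0.69, adjusted p = 0.622), Fos (-0.12) and Vcl (-0.98, adjusted p = 0.565) were not called.

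Genes of primitive endoderm, the lineage that lines the yolk sac, had a median of -0.67 over 25 measured genes beside -0.29 for all named genes, and 14 of the 25 lay below the median of all. It was -0.33 with vector and -0.81 with SRFdM-VP16, beside -0.04 and -0.49 for all. None of the 25 was called, beside 0.807% of all named genes. At an unadjusted p under 0.05, 8 were lower, as were 13.3% of all named genes. Gata6, a transcription factor of this lineage, was at the floor in all 4 E81 arrays and measured 284, 333 and 75 in E100 (at least 3.31-fold, limma adjusted p = 0.0594). A second Gata6 probe set stayed near the floor in both. Col4a1, a basement membrane collagen, measured 270, 671, 609 and 690 in E81 and 4200, 4204 and 1411 in E100 (-2.61, adjusted p = 0.0709). Gata4 went the other way, with 549 to 711 in E81 and 373 to 520 in E100 (0.55, adjusted p = 0.565). The summed signal of 10 endoderm markers was 2299 to 3729 in E81 and 5165 to 7894 in E100, without overlap. This sum was 2515 to 7186 in wild type and, near the range of E81, 2149 to 3646 in E99. It came mostly from Sparc (means of 994.2 and 3311.3) and Lama1 (678.5 and 1765.3), and 6 of the 10 markers were at the floor in all E81 arrays. Foxa2, Afp and Ttr were at the floor in all 7 arrays. In these bulk samples fewer cells of a type and less RNA per cell cannot be told apart. With SRF-VP16 the list median was -0.25, beside 0.03 for all named genes.

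The list of cholesterol synthesis genes, which also holds Scd1, Scd2 and Fasn of fatty acid synthesis and the regulator Insig1, had the lowest median of the 28 lists, -0.87 over 17 genes. The median was -0.66 with vector and -0.99 with SRFdM-VP16, beside -0.04 and -0.49 for all, and 16 of the 17 lay below the median of all genes. The called members, Sc5d and Hsd17b7, were both dim. Sqle, the squalene epoxidase, measured 1758, 1319, 816 and 674 in E81 and 4107, 3968 and 1336 in E100, so that 1 E100 array overlapped with E81, and it was not called (-1.53, limma adjusted p = 0.245). With SRF-VP16 the list median was 0.17, beside 0.03 for all named genes. With control plasmids it was -0.03 for E81 minus wild type and 0.81 for E100 minus wild type, beside -0.04 and 0.24 for all. Genes of glycolysis and hypoxia had a median of -0.54 over 24 genes, none called. The other called list members were Bad, Hbegf, Wnt6, Klf5, Myl4 and Cdkn1c, and 20 of the 28 lists had 0 called members. Of all named genes 0.807% were called, and at that share lists this short would hold few called members.

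The fit also gave the difference between the lines with SRFdM-VP16 less that with vector. The vector arm of E100 is 1 array, which the fit assumes to vary like the other groups. By limma 17 probe sets (0.176%) were called, 15 positive (0.156%) and 2 negative (0.0207%), and none had any of the 7 arrays at 500 or more. In 10 of the 17 that single array was the only one of the 7 above the floor, and 15 of the 17 were also among the 76. Meis3, a homeobox gene, measured 245 in that array and was negative in the other 6, and Lrg1 measured 173 there and was negative elsewhere. No brighter gene was called as differing between the plasmids.

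The lines were also compared in their SRF-VP16 arrays. Background differed here too, with 34.2% and 37.1% of values at or below 0 in E81 and 23.4% and 26.5% in E100. Its part in the results below was not tested. The levels of these arrays do not enter the differences that chose the 43, but their spread enters the errors of the same fit. There 44 probe sets (0.456%) were called, 5 higher (0.0519%) and 39 lower (0.404%) in E81, 40 of them with all 4 arrays under 500, and the median over all was 0. Of the 43, 37 were below 0, as were 42.8% of all probe sets. In 24 of the 43 both E81 arrays lay below both E100 arrays, as in 13.4% of all. The median of the 43 was -0.69 there, against -1.92 with control plasmids. Called in both comparisons were Plcd1 (34 and -125 in E81, 421 and 343 in E100, adjusted p = 0.0259), Emp2 (-202 and -12 against 309 and 459, adjusted p = 0.00569), Meis3, and the dimmer probe set of Atp1b1 (adjusted p = 0.0025), a sodium pump subunit, all by limma. Htra1 overlapped between the lines with SRF-VP16, at 6210 and 5733 in E81 and 8331 and 5932 in E100. Pla2g7 measured 4994 and 5528 in E81 against 4656 and 3940, and neither gene was called there. Whether the differences between the lines changed with the activator was not tested.

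Chromosome 8 stood apart from the other chromosomes. Over 3363 named genes with a mean intensity of at least 500, the median difference between the lines was -0.06 for chromosome 8 and -0.34 for all others, an excess of 0.28. The other 19 chromosomes lay between -0.15 and 0.13 of the rest. The excess was 0.28 with vector, 0.28 with SRFdM-VP16 and 0.33 with SRF-VP16, so that it was as large in the SRF-VP16 arrays and in those with vector. Of the chromosome 8 genes 73.6% lay above the median of the others, and 80.7% did so with SRF-VP16. The excess ran along the whole chromosome: in 6 parts by gene order it was 0.23 to 0.34. No single gene of it was called. Aars, the alanyl-tRNA synthetase, is an example, with 5256 to 6900 in E81 and 3529 to 4776 in E100 (0.55 ± 0.18, limma adjusted p = 0.198).

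**Figure D3:**
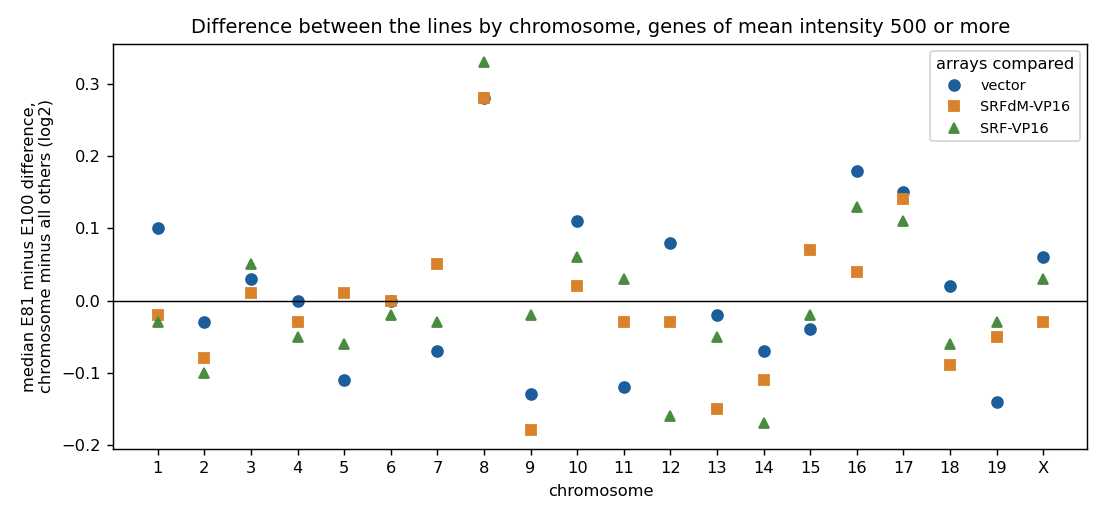
Median log2 difference between E81 and E100 for the genes of each chromosome less the median of all other genes, for the vector, SRFdM-VP16 and SRF-VP16 arrays separately. Chromosome 8 lies at 0.28 to 0.33 with all 3 plasmids, above every other chromosome.

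The same offset was computed in each array, as the median deviation of chromosome 8 genes from their own means over all 23 arrays, less that of all other genes. It was 0.12, 0.11, 0.15 and 0.13 in the E81 control arrays and 0.16 and 0.09 in those with SRF-VP16. In E100 it was -0.17, -0.16 and -0.14 with control plasmids and -0.12 and -0.31 with SRF-VP16. The 6 arrays of E81 and the 5 of E100 did not overlap. Neither wild type nor E99 was uniform: 3 wild-type arrays lay at 0.15 to 0.22 and 3 at -0.09 to -0.04, and 3 arrays of E99 lay at 0.15 and 3 at -0.29 to -0.20. These offsets describe RNA, and their cause was not tested.

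Shorter stretches of neighbouring genes also differed. Running medians of 15 neighbouring genes of mean intensity at least 500 were taken over 3083 windows, and stretches that departed by 0.4 or more from the median of all genes were merged, a rule chosen after the values were seen and given without a test. It marked 9 stretches, 5 lower and 4 higher in E81, of which 3 were on chromosome 8. With SRF-VP16, 8 of the 9 had the same sign. The exception was a stretch of chromosome 9 from Ubl5 to Aplp2 (-0.33 with control plasmids, -0.02 with SRFdM-VP16 alone, 0.12 with SRF-VP16). A stretch of chromosome 11 from Hspa4 to Atox1 was -0.40 with control plasmids but 0.06 with SRFdM-VP16 alone.

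The strongest was the distal end of chromosome 14, 20 genes from Itm2b to Tm9sf2, the last gene of that brightness. Relative to all other genes it was lower in E81 by -0.80 with control plasmids, -0.53 with vector, -1.03 with SRFdM-VP16 and -0.88 with SRF-VP16. Without the first SRFdM-VP16 array of E81 it was -0.51. Among its genes, Tm9sf2, a transmembrane protein of the Golgi and endosomes, measured 1465, 2604, 486 and 2296 in E81 and 5055, 4903 and 5534 in E100 (-1.84, limma adjusted p = 0.0835). Ipo5, a nuclear import receptor, measured 5991, 5164, 1775 and 3381 against 9165, 8939 and 8426 (-1.27). Klf5, a transcription factor of the pluripotency list, measured 9369, 10938, 8530 and 7931 against 18537, 15998 and 19228 and was called (-0.98 ± 0.17, adjusted p = 0.0164). The Klf5 call was lost after quantile normalization (-0.87, limma adjusted p = 0.0701) and after median division (-0.29, adjusted p = 0.733). Diaph3, a formin that nucleates actin filaments, was called too (468, 848, 88 and 184 against 1145, 1197 and 1625, adjusted p = 0.00503). Lmo7 (-1.94), Commd6 (-1.60), Dock9 (-1.65) and Stk24 (-1.43) also had E81 below E100 in every control array, and none of these was called. Tpt1 (0.07) and Itm2b (0.14), at the proximal side, were not lower. Per array, the offset of this stretch was -0.98 to -0.01 in the 6 E81 arrays and 0.08 to 0.68 in the 5 E100 arrays. The 6 wild-type arrays, at 0.17 to 0.48, lay with E100, and the 6 of E99, at -0.31 to -0.03, lay with E81.

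Chromosome 12 held 2 adjoining stretches of opposite direction. From Mnat1 to Cpsf2, 28 genes, the difference was -0.38 relative to all other genes (-0.39 with SRF-VP16), and E100 exceeded wild type by 0.32. Sptlc2, which starts sphingolipid synthesis, measured 1252, 1531, 1095 and 1031 in E81 and 3140, 2954 and 1695 in E100, and Max, a partner of Myc, 530, 1386, 128 and 444 against 1654, 3120 and 1610. From Cpsf2 to the last bright gene, 25 genes, it was 0.45 (0.37 with SRF-VP16), and E100 was 0.43 below wild type on the same relative scale, while E81 differed from wild type by 0.01. Vrk1, a chromatin kinase, measured 606, 721, 646 and 503 in E81 and 223, 221 and 560 in E100, and Ppp2r5c, a phosphatase subunit, 7963, 10374, 8430 and 7760 against 3771, 4344 and 7670. In both genes the second SRFdM-VP16 array of E100 stood near E81. The offsets showed the same: in the distal stretch they were -0.52, -0.66 and -0.41 in the vector, first SRFdM-VP16 and first SRF-VP16 arrays of E100, but -0.04 and 0.26 in the second arrays with SRFdM-VP16 and SRF-VP16. In the middle stretch they were 0.36, 0.43 and 0.50 against -0.07 and 0.11. So the chromosome 12 differences rest on 3 of the 5 arrays of E100, whereas for chromosome 8 and the end of chromosome 14 no array of E100 overlapped with E81.

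**Figure D4:**
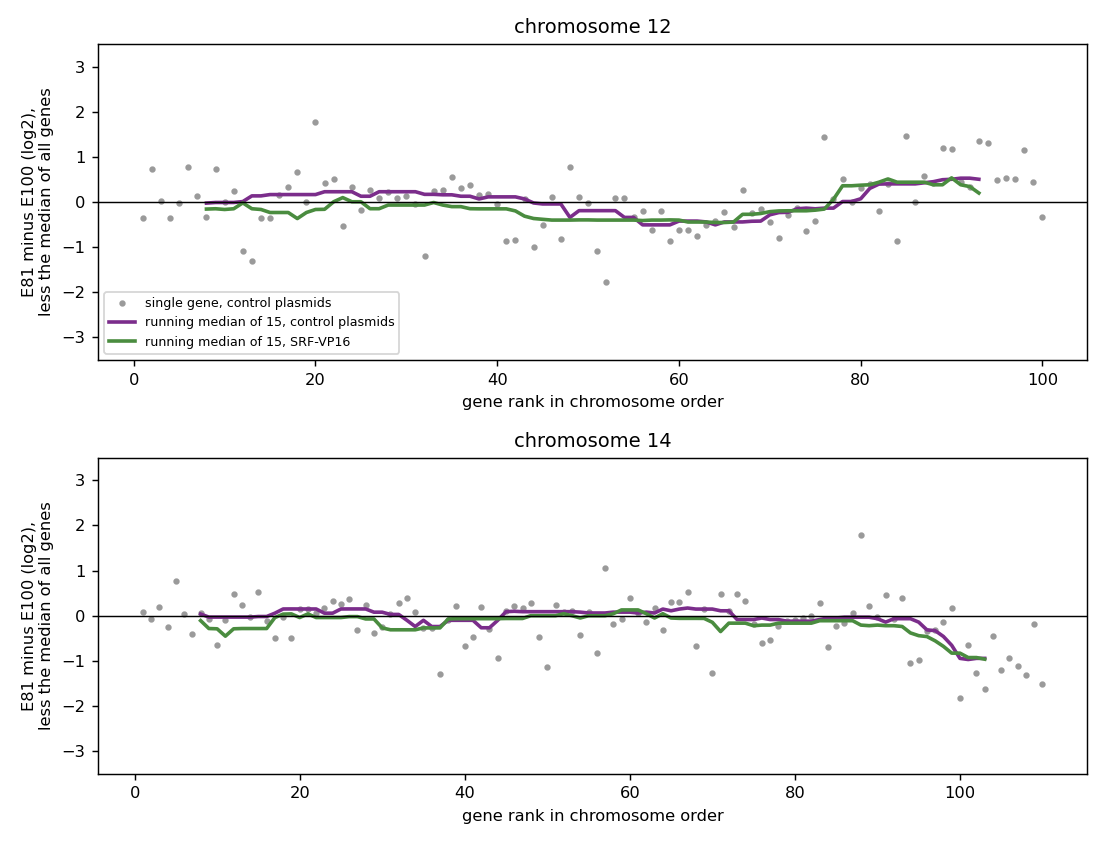
Log2 difference between E81 and E100 less the median of all genes, along chromosomes 12 and 14 by gene rank, for genes of mean intensity 500 or more. Dots are genes with control plasmids and lines are running medians of 15 genes with control plasmids and with SRF-VP16; both lines fall at the end of chromosome 14, and on chromosome 12 they are below 0 in the middle stretch and above 0 at the end.

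**Figure D5:**
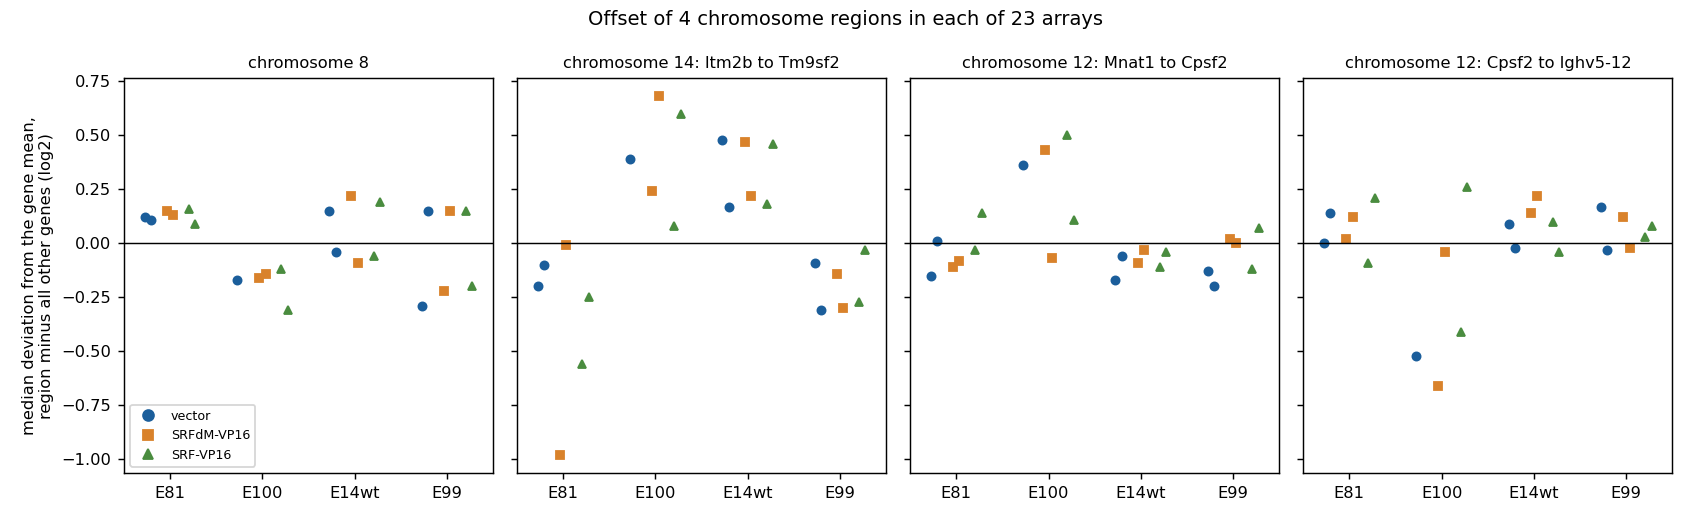
Offset of chromosome 8 and of 3 stretches in each of the 23 arrays, as the median log2 deviation from the gene means less that of all other genes. The E81 and E100 points separate for chromosome 8 and for the chromosome 14 stretch, and for the chromosome 12 stretches 3 of the 5 E100 points lie away from the other lines.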

How the data were processed

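The authors deposited linear intensities, 1 per probe set for each array; neither the labels nor the table name the software, background correction or scaling. Intensities were used as deposited, because the brightest intensity class was on a common scale (0.923 to 1.048 of the median array). In the next brightest class the ratios were 0.923, 1.276, 0.794 and 0.938 in the E81 control arrays. They were 1.134, 1.171 and 1.105 in those of E100, so that class was not on a common scale. Of 12502 probe sets, 66 controls were left out, and 9643 lay above the 40th percentile of their array in at least 2 arrays. Values were floored at the 40th percentile of all values (58) and log2-transformed. limma 3.58.1 in R 4.3.3 fitted 12 group means over 23 arrays (11 residual degrees of freedom, intensity trend, two-sided, 5% Benjamini-Hochberg); lines were compared over the mean of the plasmids. The procedure was also run on simulated data. Those had no floor and no background difference between arrays, so the run does not bear on calls near the floor. Per the platform annotation, 10141 probe sets had 1 symbol, 362 several and 1933 none; a gene took its brightest probe set. Chromosome and gene order came from RefSeq (GRCm38.p6). Members, the 28 gene lists and the naming rule were chosen with earlier results of these data known. The rule named the 12 largest called non-overlapping falls and rises, up to 3 called members (or the 1 nearest) per list, a fixed set of ES cell, SRF-target, imprinted and sex-linked genes, and up to 5 genes called also with SRF-VP16; others were named after their values were seen. Srf was not analysed here. Alternatives were other scalings, filters, floors and transforms, no trend, a replicate term, subsets of arrays, and leaving out each array.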

Additional observations from a re-analysis of the deposited data

Results flagged for a closer look

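For Meis3 the difference between the lines with SRFdM-VP16 minus that with vector was 2.08 (limma's adjusted p for this difference was 0.00395). It rests on the 1 vector array of E100, at 245, the only array of the 7 above the floor, so a plasmid effect cannot be told apart from that array. For Lrg1 the same difference was 1.58 (adjusted p = 7.59e-05, limma), and again that vector array, at 173, was the only one above the floor.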

How the results depend on the processing

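The 76 calls between the lines became 22 with quantile normalization, 21 with median division, 155 with no filter, 34 with a filter and 132 with a floor at the 60th percentile, 48 with an inverse hyperbolic sine, 128 with the 7 arrays alone, 34 with equal weight per array, 38 with vector arrays only, and 40 without both E81 SRFdM-VP16 arrays (chosen after seeing the data). Leaving out 1 array gave 57 to 372: 372 without the second SRFdM-VP16 array of E81, 132 without the second of E100, and 121 without either SRF-VP16 array of E100. Of the 43 larger differences, 4 remained called with vector arrays only. The 17 calls between plasmids became 0 (quantile normalization, 461 at an unadjusted p under 0.05), 5 (median division), 94 (no filter), 0 (60th percentile filter, 278 unadjusted), 61 (60th percentile floor), 1 (inverse hyperbolic sine), 1 (no trend) and 96 (7 arrays), and 16 to 205 leaving out 1 array (205 without the second SRFdM-VP16 array of E81). The 44 with SRF-VP16 became 22, 28, 0 (60th percentile filter, 396 unadjusted), 24 (inverse hyperbolic sine) and 0 (4 arrays alone, 676 unadjusted), the first with quantile normalization and the second with median division, and 37 to 154 leaving out 1 array (154 and 109 without the first and second of E100, 68 without the second of E81). With a replicate block the counts were 80, 16 and 40. The numbers are not said to pair samples; the replicate 2 minus replicate 1 changes of the groups of both lines correlated at 0.11 to 0.31. The chromosome 8 excess was 0.26 to 0.29 in every setting. Over the same settings the chromosome 14 stretch ran from -1.03 to -0.51, the chromosome 9 stretch from -0.40 to -0.02 and the chromosome 11 stretch from -0.45 to 0.06. The cause of these changes was not tested.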
